A study of Mus musculus with 24 samples.

Results

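The 9 genes described here encode enzymes of the mevalonate arm of sterol synthesis, the steps that carry acetyl-CoA units to squalene, and were taken by symbol from every deposited table that lists them (Aacs, Acat2, Hmgcs1, Mvk, Pmvk, Mvd, Idi1, Fdps and Fdft1, 9 of 19805 listed symbols with coordinates). They were measured by RNA sequencing of liver total RNA from 24 male mice in 6 groups of 4. PXR knockout mice (PXRKO; C57BL/6, 20 weeks old) received atorvastatin at 10 mg/kg or vehicle, which was distilled water. Wild-type mice (WT; C57BL/6N, 19 to 20 weeks old) received pravastatin at 10 mg/kg, atorvastatin at 10 mg/kg, pregnenolone 16α-carbonitrile (PCN, an agonist of mouse PXR) at 100 mg/kg, or the same vehicle. All mice ate standard chow, were dosed by oral gavage for 4 days and were fasted for 12 h before sampling. Each title carries its own animal number, so the 4 libraries of a group come from 4 mice. The genotypes belonged to different experiments, which means that genotype and experiment cannot be told apart, and the labels do not say which exons the knockout lacks.

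In this pathway acetoacetyl-CoA and acetyl-CoA are joined to HMG-CoA, a reductase turns HMG-CoA into mevalonate, and mevalonate is phosphorylated and decarboxylated to the isoprenoid building blocks from which squalene, cholesterol, ubiquinone and prenyl groups are made. Statins inhibit that reductase. When sterols in the endoplasmic reticulum are low, the transcription factor SREBP-2 is released by proteolysis and raises transcription of most of these enzymes, in liver as in other tissues, and NF-Y and Sp1 are its usual partners on sterol-responsive promoters.

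RefSeq promoter windows were at hand for 7 of the 9 genes: Aacs, Acat2, Hmgcs1, Mvk, Pmvk, Mvd and Idi1. The 250 bases before the transcript start of 4 of them are shown, 5′ to 3′ on the strand of the gene in build GRCm38.p6. RefSeq starts can differ from the gene starts in the tables. Hmgcs1 was chosen because it holds the sterol regulatory element, and the others because they hold both partner motifs and stand for the steps after mevalonate. Capitals mark the sterol regulatory element TCACCCCAC, the NF-Y box CCAAT and the GC box GGGCGG, a box on the other strand being printed as its reverse complement.

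Hmgcs1, chr13:119690101-119690350, plus strand: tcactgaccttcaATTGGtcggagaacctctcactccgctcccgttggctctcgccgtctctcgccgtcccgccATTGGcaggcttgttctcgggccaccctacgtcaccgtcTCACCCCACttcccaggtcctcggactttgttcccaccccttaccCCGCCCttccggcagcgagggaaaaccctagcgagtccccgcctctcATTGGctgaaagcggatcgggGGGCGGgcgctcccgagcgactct
Mvk, chr5:114444019-114444268, plus strand: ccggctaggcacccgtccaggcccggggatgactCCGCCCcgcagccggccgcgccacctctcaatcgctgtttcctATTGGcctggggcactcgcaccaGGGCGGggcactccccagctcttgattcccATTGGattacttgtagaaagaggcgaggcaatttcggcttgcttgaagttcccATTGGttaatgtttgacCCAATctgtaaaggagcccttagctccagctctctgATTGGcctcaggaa
Mvd, chr8:122443423-122443672, minus strand: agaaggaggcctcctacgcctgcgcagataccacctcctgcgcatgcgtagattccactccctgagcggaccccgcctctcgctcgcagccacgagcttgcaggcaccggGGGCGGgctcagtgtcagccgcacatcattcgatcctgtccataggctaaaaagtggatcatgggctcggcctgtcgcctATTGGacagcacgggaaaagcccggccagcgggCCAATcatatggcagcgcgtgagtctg
Idi1, chr13:8885356-8885605, plus strand: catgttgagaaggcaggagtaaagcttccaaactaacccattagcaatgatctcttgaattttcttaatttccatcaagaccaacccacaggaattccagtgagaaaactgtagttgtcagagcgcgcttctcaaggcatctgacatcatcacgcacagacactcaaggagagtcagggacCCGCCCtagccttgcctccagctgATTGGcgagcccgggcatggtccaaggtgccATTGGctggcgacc

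Both strands were searched for each motif. A gene with more than 1 window counted if any of them held the motif, while the shares over all genes are of single windows. In these 250 bases TCACCCCAC was found in 1 of the 7 genes (Hmgcs1) and in 0.496% of 32851 windows of all RefSeq genes, and its core CACCCCAC, which overlaps it, in 2 of 7 (Acat2 and Hmgcs1) against 2.58% of windows. The NF-Y box was found in 5 of 7 (Hmgcs1, Mvk, Pmvk, Mvd and Idi1) against 33.9% of windows. The GC box was also found in 5 of 7 (Acat2, Hmgcs1, Mvk, Mvd and Idi1) against 32.7% of windows. Mvk held 5 NF-Y boxes and Hmgcs1 held 3, while the Aacs window held no match to any of these letters. A match is only a run of letters, and other forms of these elements were not searched.

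**Figure D1:**
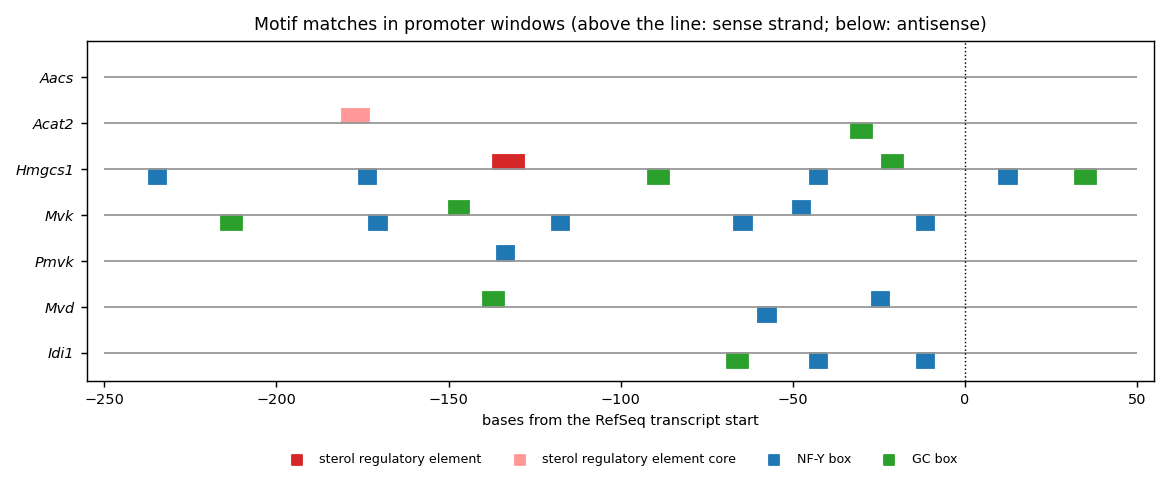
Motif matches in the promoter windows of 7 genes, by distance in bases from the RefSeq transcript start (dotted line), with matches on the strand of the gene above each line and matches on the other strand below it. Mvk shows 5 NF-Y boxes and Hmgcs1 the only full sterol regulatory element, which covers the core motif inside it.

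The genes lie on 6 chromosomes of build GRCm38, as the tables give them: Aacs at chr5:125475814-125517410, Acat2 at chr17:12942890-12960747, Hmgcs1 at chr13:119690379-119708260, Mvk at chr5:114444269-114460591, Pmvk at chr3:89454541-89469013, Mvd at chr8:122433601-122443422, Idi1 at chr13:8885501-8892451, Fdps at chr3:89093588-89101959 and Fdft1 at chr14:63145150-63179578. In the GENCODE annotation 26.7% of the exonic bases of Fdps are shared with Gm43738, a gene model on the same strand, and 18.3% of those of Fdft1 with Ctsb on the opposite strand. The shares were 12.1% for Hmgcs1 and 9.22% for Idi1, with gene models on the opposite strand, and 0 for the other 5 genes. The library kit keeps strand but the setting used in counting is not given in the sources used here, so counts of these 4 genes can include or lose reads of their partners. Ctsb was not called with PCN (5871 ± 340.3 in WT PCN livers and 6082 ± 339 in WT vehicle livers; SD, n = 4 each; log2 fold change −0.05, edgeR adjusted p = 0.754). Acat2 lies 2289 bases from its paralog Acat3, and reads of such copies can be split.

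Levels are normalised read counts, that is counts divided by library size factors, on a scale where a factor of 1 stands for 12.3 M counts (M for mega). Libraries held 8.16 to 16.3 M listed counts in WT PCN and 6.64 to 24.6 M in WT vehicle. For the other groups depth is known as a factor, from 0.634 in a PXRKO atorvastatin library to 1.82 in a pravastatin library. Nr1i2, which encodes PXR, lay between 398 and 659 in the 8 PXRKO libraries and between 1068 and 1665 in the 12 WT libraries of the groups that list it, so the targeted transcript was lowered and not absent, and gene-level counts can hold exons outside the deleted part. The 6 hepatocyte markers read, Alb the most abundant of them, had counts in every WT PCN and WT vehicle library. All 9 genes have values in WT atorvastatin, WT PCN, PXRKO atorvastatin and WT vehicle livers. Only Mvd and Idi1 are listed for pravastatin and only Fdps for PXRKO vehicle, because most tables list genes chosen by their own result.

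In WT vehicle livers the arm was uneven. Per kilobase of exon, Hmgcs1 stood highest at 583 ± 85.9 and Fdps lowest at 15.2 ± 3.41 (SD, n = 4 libraries), a ratio of 38.4. Between them came Fdft1 at 176 ± 14.6, Acat2 at 142 ± 13.9, Aacs at 137 ± 70.5, Idi1 at 74.6 ± 4.59, Pmvk at 73.5 ± 16.4, Mvk at 39.7 ± 7.32 and Mvd at 37.5 ± 7.10 per kilobase. The libraries of Acat2 and Aacs, of Aacs and Idi1, of Idi1 and Pmvk, and of Mvk and Mvd overlapped, so those neighbours in the order are not separated. Aacs ran from 76.6 to 237.8 per kilobase and so also overlapped Fdft1 (165 to 196) and Pmvk (56.9 to 90.3). In WT PCN livers Aacs stood next to Hmgcs1, at 440.0 ± 68.2 and 442 ± 124 per kilobase. In WT atorvastatin livers the ratio of Hmgcs1 to Fdps was 23.6, and in PXRKO atorvastatin livers it was 21.8. Gene models share 26.7% of the exonic bases of Fdps and 12.1% of those of Hmgcs1, so counting can bias these levels and ratios.

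**Figure D2:**
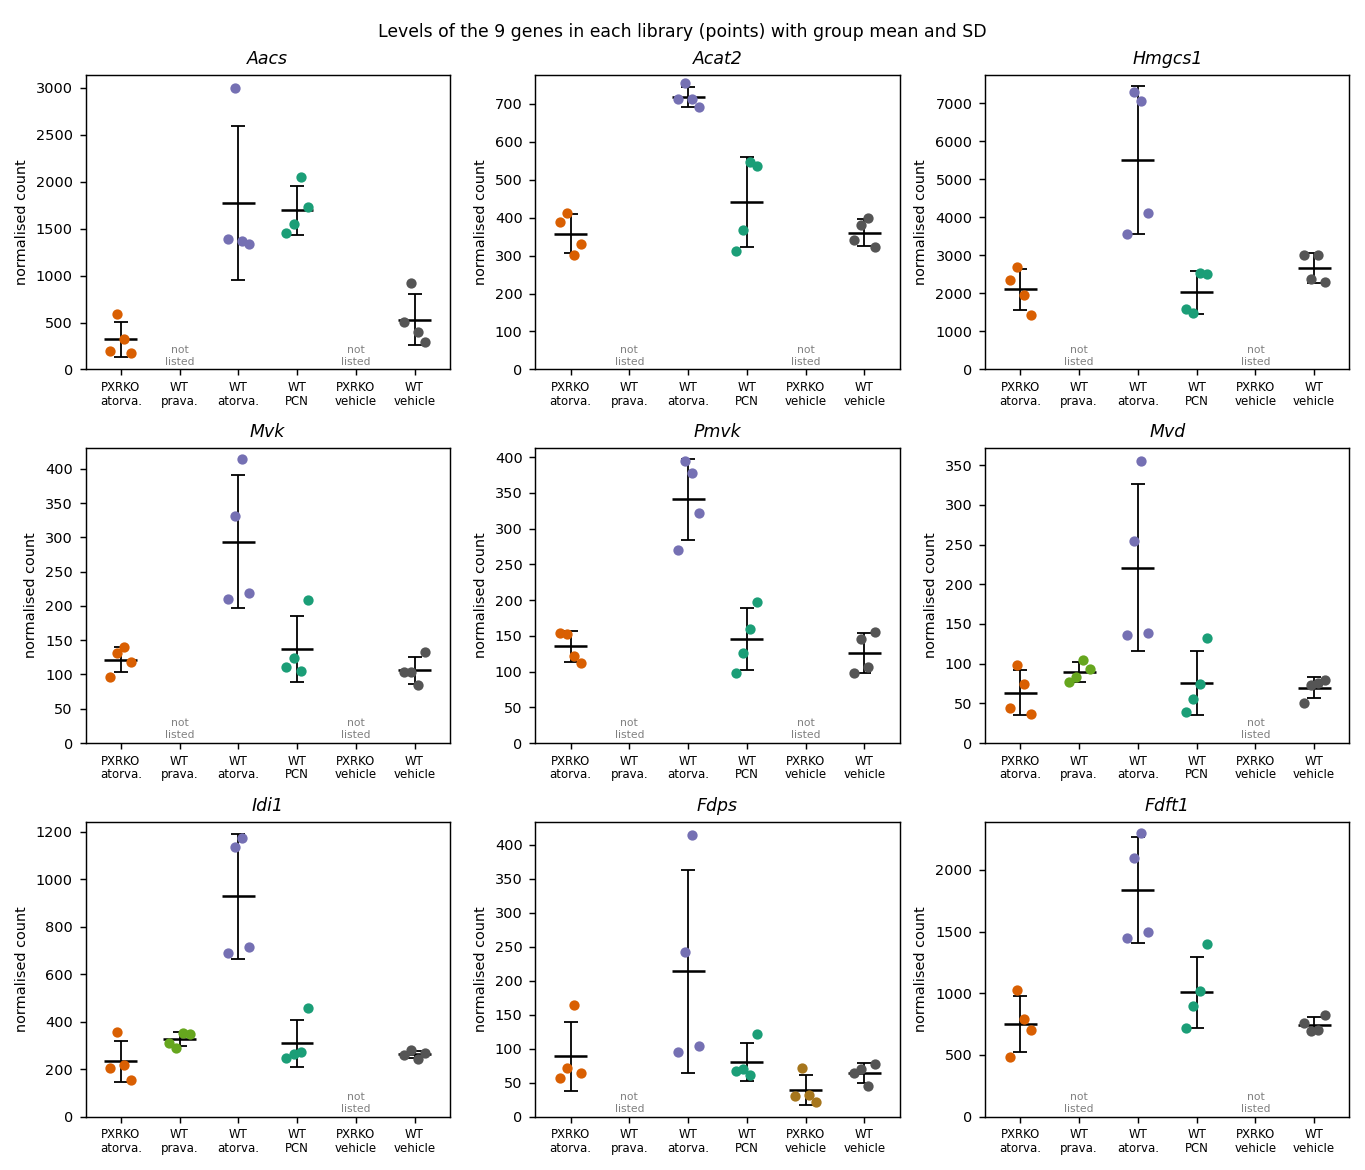
Normalised read counts of the 9 genes in each library (points), with the mean (bar) and SD (whiskers, n = 4) of each group. WT atorvastatin livers stand above WT vehicle livers for every gene, WT PCN livers do so for Aacs only, and PXRKO atorvastatin libraries overlap the WT vehicle libraries for all 9.

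The first question was what atorvastatin did to the arm in WT liver. All 9 genes rose in the authors' deposited table of WT atorvastatin against WT vehicle at an adjusted p of 0.05, where 5.47% of 13922 genes were called higher. For each of the 9, all 4 WT atorvastatin libraries lay above all 4 WT vehicle libraries. The share of all genes separated in this way is not known, since only genes selected by their own result are listed. Folds of the group means ran from 1.99 for Acat2 to 3.55 for Idi1, with a median of 2.77. The genes of the arm were chosen with these results known, so the count is a description. The deposited log2 fold change can be smaller than the log2 of such a ratio (0.85 for Aacs), and folds here are ratios of group means on the common scale.

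Entry steps. Aacs activates the ketone body acetoacetate to acetoacetyl-CoA in the cytosol. It had 1389, 2999.5, 1369.8 and 1334 normalised counts in WT atorvastatin livers, against 502, 916, 403 and 295 in WT vehicle livers. One WT atorvastatin library was at 1.69 times the group mean and the other 3 were close together, yet each of them was above the highest WT vehicle library. The fold of means was 3.35 (adjusted p = 0.00367 in the authors' deposited table; edgeR log2 fold change 1.72, 95% interval 0.97 to 2.48).

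Acat2, the cytosolic thiolase that condenses acetyl-CoA to acetoacetyl-CoA, had 712, 754, 711 and 690.4 counts in WT atorvastatin livers, against 340.3, 381, 398 and 321 in WT vehicle livers. It had the smallest fold of the arm (1.99) and the tightest atorvastatin group, with a coefficient of variation of 3.72%, and the smallest adjusted p in the authors' deposited table (1.87e-24). Hmgcs1, the cytosolic HMG-CoA synthase, had 3551, 7307, 7057 and 4112 counts in WT atorvastatin livers, against 3019, 2383, 3020 and 2294 in WT vehicle livers. The lowest WT atorvastatin library of Hmgcs1 was above the highest WT vehicle library by less than the range of either group. Its fold was 2.06 (adjusted p = 0.00392 in the authors' deposited table).

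Steps on mevalonate and its phosphates. Mvk, mevalonate kinase, had 211, 331, 414 and 219.5 counts in WT atorvastatin livers, against 104, 104, 84.7 and 132 in WT vehicle livers, a fold of 2.77. Pmvk, phosphomevalonate kinase, had 269.8, 394, 378 and 321 counts in WT atorvastatin livers, against 97.4, 145, 107 and 155 in WT vehicle livers, a fold of 2.71. Mvd, the decarboxylase that makes isopentenyl diphosphate, had 136, 254, 355.5 and 138 counts in WT atorvastatin livers, against 50.3, 72.7, 75.5 and 79.9 in WT vehicle livers, a fold of 3.17. In these 3 genes the groups do not overlap, and WT atorvastatin libraries 2 and 3 lay above libraries 1 and 4. In Pmvk the 4 libraries were spread without a clear gap. Adjusted p-values in the authors' deposited table were 1.93e-08 for Mvk, 6.7e-13 for Pmvk and 1.66e-06 for Mvd.

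Isoprenoid and squalene steps. Idi1, which interconverts isopentenyl and dimethylallyl diphosphate, had the largest fold of the 9 genes (3.55), with 687, 1134, 1174 and 714 counts in WT atorvastatin livers, against 257, 279, 241 and 269 in WT vehicle livers. Fdft1, squalene synthase, had 1452, 2097, 2301 and 1496 counts in WT atorvastatin livers, against 762, 698, 698 and 827 in WT vehicle livers, a fold of 2.46. Both have groups far apart for their spread, with adjusted p-values of 7.66e-21 for Idi1 and 9.54e-15 for Fdft1 in the authors' deposited table. Fdps, farnesyl diphosphate synthase, had 95.5, 242, 414 and 104 counts in WT atorvastatin livers, against 63.5, 70.3, 44.2 and 77.7 in WT vehicle livers. Its fold of 3.35 rests on widely spread libraries (coefficient of variation 69.7% in WT atorvastatin), its adjusted p was the weakest of the arm (0.0182 in the authors' deposited table), and in the edgeR fit on listed genes it lost the call in 6 of 8 fits that left out a library.

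The WT atorvastatin libraries were ordered alike across genes. Libraries 2 and 3 stood above libraries 1 and 4 for 7 of the 9 genes, all except Aacs and Acat2, and for those 7 the gap between the pairs was a ratio of 1.18 (Pmvk) to 2.32 (Fdps). The share of all listed genes with this order was not counted, so the order is not shown to be particular to the arm. Library numbers only name table columns. Size factors of the 4 libraries lay between 1.03 and 1.43, and the order of the pairs did not follow them. Aacs went with library 2 alone. Acat2 was nearly level in all 4.

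**Figure D3:**
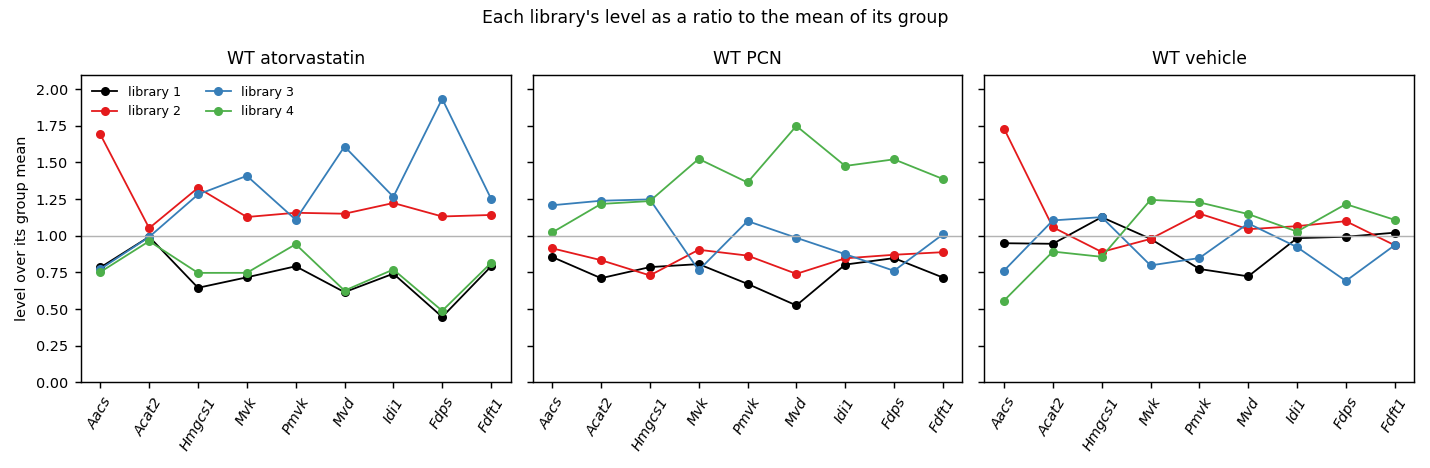
Level of each gene in each library as a ratio to the mean of its group (1 is the group mean), for WT atorvastatin, WT PCN and WT vehicle livers. With atorvastatin libraries 2 and 3 (red, blue) run above libraries 1 and 4 for 7 genes, and with PCN library 4 is the highest for 6.

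Markers of other cell types were read beside this rise. Of 5 stellate markers Lrat, Col1a1 and Col3a1 were higher in WT atorvastatin against WT vehicle (adjusted p = 0.0387, 0.0359 and 0.0257 in the authors' deposited table), and the summed level of these 3 was 509 to 1124 over WT atorvastatin libraries. Of 6 hepatocyte markers Cyp2e1 was higher (adjusted p = 0.0146 in the same deposited table), and of the Kupffer, endothelial and cholangiocyte markers none is called there. The part of these cells in the result was not tested. In whole tissue, fewer cells of a type and less RNA per cell cannot be told apart.

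The second question was what PCN did in WT liver. The edgeR quasi-likelihood test (TMM normalisation, Benjamini-Hochberg adjustment over 12859 genes) called 1 of the 9 genes higher and 0 lower, with 1.93% of genes called higher. At an unadjusted p of 0.05, 3 of the 9 passed, beside 17.9% of all genes tested, and these were Aacs and Fdft1 with a higher mean and Hmgcs1 with a lower one in WT PCN livers. DESeq2 and the authors' deposited table each also called 1. The gene was Aacs, with 1450.1, 1550.5, 2049 and 1734 counts in WT PCN livers, against 502, 916, 403 and 295 in WT vehicle livers. Every WT PCN library lay above the highest WT vehicle library, and the fold of means was 3.20 (log2 fold change 1.66, 95% interval 1.06 to 2.26, edgeR adjusted p = 0.00747).

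The other 8 genes overlapped between the groups, and the share of all genes that did so was not counted. Fdft1 had 721, 896, 1018 and 1399.8 counts in WT PCN livers, against 762, 698, 698 and 827 in WT vehicle livers, and its log2 fold change was 0.44 (95% interval 0.08 to 0.80, edgeR adjusted p = 0.177). Hmgcs1 was the only gene of the arm with a lower mean, with 1596, 1481, 2534 and 2511 counts in WT PCN livers, against 3019, 2383, 3020 and 2294 in WT vehicle livers (log2 fold change −0.39, 95% interval −0.78 to −0.01, edgeR adjusted p = 0.266). The WT PCN libraries of Hmgcs1 fell into a lower and a higher pair, and the higher pair lay inside the WT vehicle range. The median log2 fold change of the 9 genes was 0.30, beside −0.01 over all genes tested, and it was 0.023 without PCN library 4.

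None of these 8 genes passed with PCN, those of the middle steps included. Idi1 had 248, 261, 270.1 and 456 counts in WT PCN livers, against 257, 279, 241 and 269 in WT vehicle livers, so that 3 WT PCN libraries lay among the WT vehicle libraries and the other stood apart. Mvd had 39.6, 55.8, 74.4 and 132 counts in WT PCN livers, against 50.3, 72.7, 75.5 and 79.9 in WT vehicle livers, with WT PCN values on both sides of the WT vehicle range. Intervals of the log2 fold change were −0.13 to 0.63 for Idi1, −0.56 to 0.83 for Mvd, −0.29 to 0.66 for Pmvk, −0.11 to 0.85 for Mvk, −0.06 to 0.66 for Acat2 and −0.21 to 0.84 for Fdps (edgeR), so an increase of the size seen for Aacs lies outside all 6. PCN library 4 was highest for 6 genes (Mvk, Pmvk, Mvd, Idi1, Fdps and Fdft1) and lay above every WT vehicle library for 8. The share of all genes with that library above every WT vehicle library was not counted. Without PCN library 4 the log2 fold changes of Idi1, Mvd and Pmvk were −0.01, −0.33 and −0.02. Among cell type markers, the stellate marker Lrat was higher with PCN (log2 fold change 0.69, edgeR adjusted p = 0.00639) and the summed Kupffer markers were 989 to 2151 in WT PCN livers and 1602 to 2942 in WT vehicle livers. Their part in the result was not tested.

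Atorvastatin and PCN share the WT vehicle libraries, so the compounds were also compared directly, at the different doses given above. Over 2328 genes listed for WT atorvastatin, WT PCN and WT vehicle, with levels set across separately normalised tables, edgeR called 7 of the 9 genes higher in WT atorvastatin than in WT PCN livers and 0 lower, with 2.15% of those genes called higher. WT atorvastatin values exist only for genes selected by their own result in a comparison that used these libraries. The 9 genes entered that way, so the count of 7 is a description. The adjustment and the share cover these selected genes only. The log2 fold changes of the 7 ran from 0.70 for Acat2 to 1.57 for Idi1 (edgeR adjusted p = 0.0204 and 0.0012). Hmgcs1 averaged 5507 ± 1951 counts in WT atorvastatin livers and 2031 ± 570.2 in WT PCN livers (SD, n = 4 each), a log2 fold change of 1.44. Its 4 WT atorvastatin libraries all lay above its 4 WT PCN libraries.

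Aacs did not pass, averaging 1773 ± 818 counts in WT atorvastatin livers and 1696 ± 263 in WT PCN livers (SD, n = 4 each). Its log2 fold change was 0.07 (95% interval −0.58 to 0.71, edgeR adjusted p = 0.92), and 3 of the 4 WT atorvastatin libraries lay below every WT PCN library. An interval this wide leaves room for a difference of about the fold 1.64 upward, so the levels are not shown to be equal. Fdps did not pass either (log2 fold change 1.39, 95% interval 0.54 to 2.23, edgeR adjusted p = 0.0817). The count of 7 was 3 without atorvastatin library 3 or PCN library 2, and 4 without atorvastatin library 2 or PCN library 1.

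**Figure D4:**
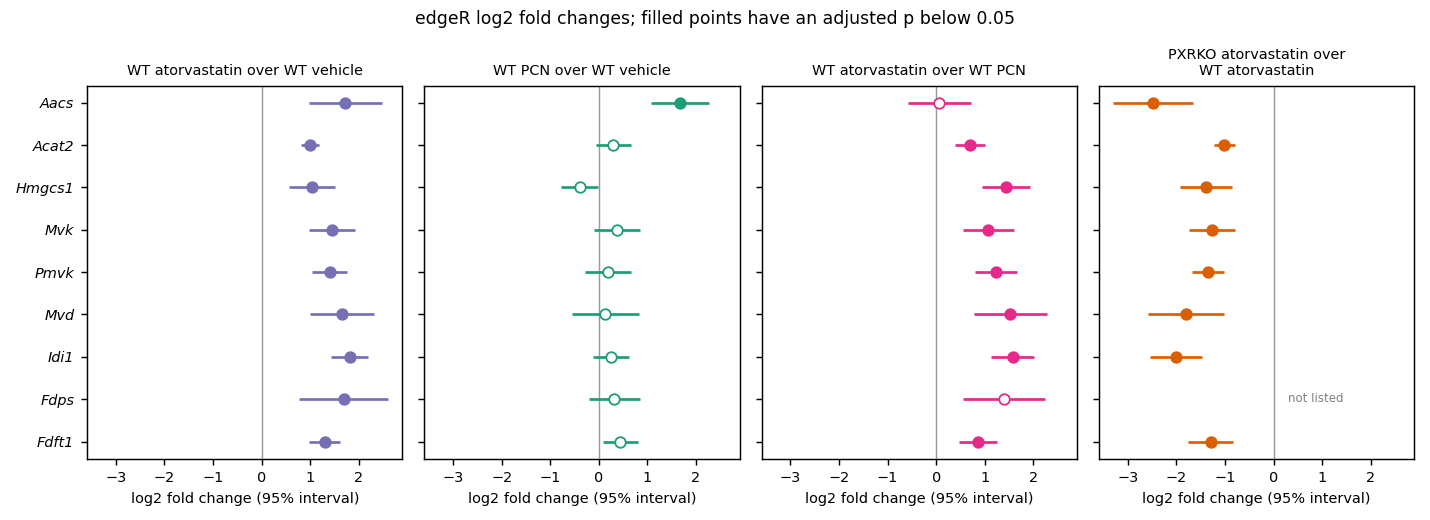
Log2 fold changes with 95% intervals from edgeR for the 9 genes in 4 comparisons, filled where the adjusted p is below 0.05. Every gene lies right of 0 for WT atorvastatin over WT vehicle, Aacs alone is filled for WT PCN over WT vehicle, and 8 listed genes lie left of 0 for PXRKO atorvastatin over WT atorvastatin.

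Pravastatin and atorvastatin are both statins given at 10 mg/kg. Pravastatin is a hydrophilic statin of fungal origin and atorvastatin a synthetic lipophilic one. The pravastatin table lists Mvd and Idi1 of the arm, and among its genes 0.191% of 14666 were called in either direction, neither of these 2 included. Idi1 had 310.4, 290.2, 351 and 349.6 counts in WT pravastatin livers, against 257, 279, 241 and 269 in WT vehicle livers. All 4 WT pravastatin libraries lay above the WT vehicle libraries, with a fold of 1.24 (adjusted p = 0.442 in the authors' deposited table and 0.908 in the edgeR fit on listed genes). Mvd had 76.4, 83.2, 104 and 93.8 counts in WT pravastatin livers, against 50.3, 72.7, 75.5 and 79.9 in WT vehicle livers, overlapping, with a fold of 1.28 (adjusted p = 0.984 in the authors' deposited table).

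The difference between the 2 statins was tested as 1 pair of compounds on 425 genes listed for both and for WT vehicle, again across separately normalised tables, a comparison chosen after the listed genes were seen. Both genes were higher in WT atorvastatin than in WT pravastatin livers, with 10.4% of those genes called higher. Idi1 averaged 927 ± 263 counts in WT atorvastatin livers and 325 ± 30.2 in WT pravastatin livers, a log2 fold change of 1.51 (95% interval 1.18 to 1.84, edgeR adjusted p = 3.67e-05). Mvd averaged 221 ± 105 counts in WT atorvastatin livers and 89.4 ± 12.2 in WT pravastatin livers (SD, n = 4 each), a log2 fold change of 1.30 (95% interval 0.74 to 1.86, edgeR adjusted p = 0.00354). In both genes every WT atorvastatin library lay above every WT pravastatin library, and both calls held without any single library. Both genes have values here only because results on these same libraries selected them, so the calls are a description.

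The third question was whether atorvastatin livers with and without PXR differ. In the authors' deposited table of PXRKO atorvastatin against WT atorvastatin, 8 of the 9 genes were lower at an adjusted p of 0.05, where 5.1% of 14690 genes were called lower. Fdps is not listed there. For each of the 8, all 4 PXRKO atorvastatin libraries lay below all 4 WT atorvastatin libraries. Only called genes are listed there, so the share of all genes separated in this way is not known. PXRKO atorvastatin means were 0.181 (Aacs) to 0.499 (Acat2) of the WT atorvastatin means. WT and PXRKO mice came from separate experiments, so this difference cannot be told apart from one between experiments.

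Aacs stood furthest apart, with 195, 587, 328 and 174 counts in PXRKO atorvastatin livers, against 1389, 2999.5, 1369.8 and 1334 in WT atorvastatin livers (log2 fold change −2.48, 95% interval −3.30 to −1.66 in edgeR; adjusted p = 5.64e-05 in the authors' deposited table). Idi1 had 204, 355, 216 and 153 counts in PXRKO atorvastatin livers, against 687, 1134, 1174 and 714 in WT atorvastatin livers (adjusted p = 8.92e-14 in the authors' deposited table). Mvd followed, with 43.5, 97.8, 74.4 and 37.1 counts in PXRKO atorvastatin livers, against 136, 254, 355.5 and 138 in WT atorvastatin livers (adjusted p = 0.00327 in the authors' deposited table). In these 3 genes the PXRKO atorvastatin values were spread widely but stayed under the WT atorvastatin range, and library 2 was the highest of the 4 in each.

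Hmgcs1 had 2354, 2702, 1947 and 1442 counts in PXRKO atorvastatin livers, against 3551, 7307, 7057 and 4112 in WT atorvastatin livers. Fdft1 had 480.4, 1027, 788 and 701 counts in PXRKO atorvastatin livers, against 1452, 2097, 2301 and 1496 in WT atorvastatin livers. In both genes the groups were again separate. Acat2 (300.1 to 413 counts), Mvk (96.9 to 140) and Pmvk (111 to 155) varied least in PXRKO atorvastatin livers, each with a coefficient of variation under that of the other 6 genes (14.6%, 15.3% and 16.3%). All 8 genes kept the call in the edgeR fit on listed genes and without any single library. Of other cell type markers, the endothelial marker Lyve1 was higher in PXRKO atorvastatin than in WT atorvastatin livers (adjusted p = 0.036 in the authors' deposited table), and the hepatocyte marker Ttr was lower (adjusted p = 0.0433 in the same deposited table). Their part was not tested.

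**Figure D5:**
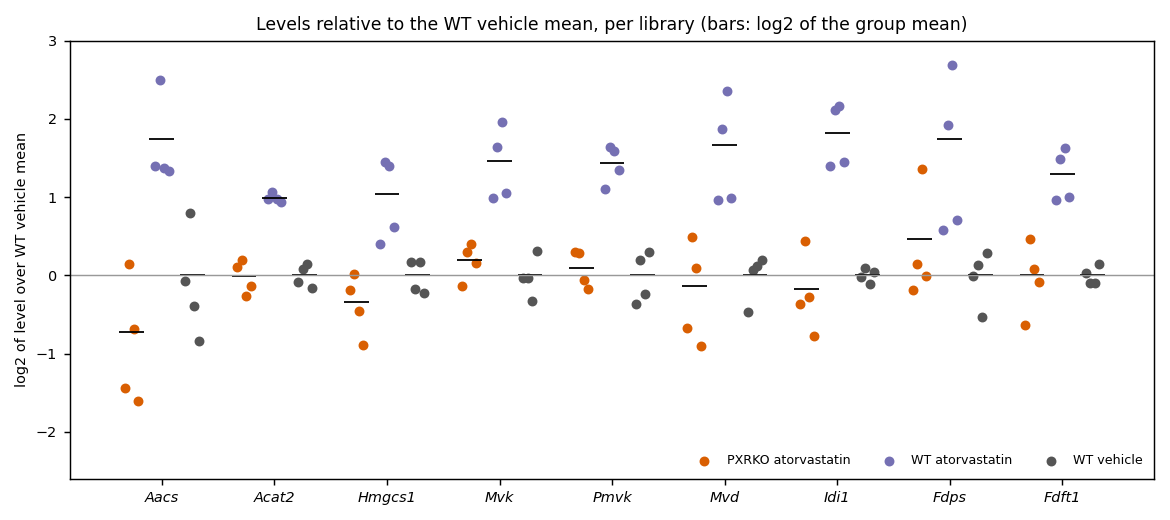
Levels of the 9 genes in PXRKO atorvastatin, WT atorvastatin and WT vehicle libraries (points), as log2 of the ratio to the WT vehicle mean, with bars at the log2 of each group mean. PXRKO atorvastatin means lie between 0.607 (Aacs) and 1.39 (Fdps) times the WT vehicle mean.

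On the common scale the PXRKO atorvastatin libraries overlapped the WT vehicle libraries for all 9 genes. Their means were 0.607 to 1.39 times the WT vehicle mean, with a median of 0.993, and 4 were above it and 5 below it. No test was made of this pair, which differs in genotype, treatment and experiment. Neither the table of PXRKO vehicle against WT vehicle, in which 2.08% of 14780 genes were called in either direction and which lists genes up to an adjusted p of 0.0995, nor any other gives PXRKO vehicle values for genes of the arm other than Fdps. The size of the response inside the knockout can therefore be read for Fdps alone. In the authors' deposited table of PXRKO atorvastatin against PXRKO vehicle, 0 of the 9 genes were called, beside 0.106% of 11335 genes. A gene not listed there may also not have been tested.

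Fdps had 56.2, 71.0, 164 and 63.4 counts in PXRKO atorvastatin livers, against 29.7, 72.1, 31.8 and 22.0 in PXRKO vehicle livers. One library stood high in each group, and the groups overlapped through the high PXRKO vehicle library. The fold of means was 2.28, and the authors' deposited table gives an adjusted p of 0.671, with 0.106% of 11335 genes called in either direction (edgeR on listed genes gave a log2 fold change of 1.18, 95% interval 0.29 to 2.07, adjusted p = 0.534). That log2 fold change of Fdps was 0.67 without PXRKO atorvastatin library 3 and 1.68 without PXRKO vehicle library 2, the high library of each group, and no fit without a library called it. In WT livers the fold of Fdps was 3.35, as given above. The difference between the genotypes' responses was a log2 of −0.52 (95% interval −1.90 to 0.87, edgeR interaction adjusted p = 0.759 over 357 genes listed for all 4 groups, of which 11.5% were called), so a different response was not shown, nor an equal one. Fdps has PXRKO vehicle values only because its own result between these PXRKO groups selected it. Its fold in the knockout, the interval and the interaction are therefore descriptions.

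Genes around the arm were read from lists. Of 12 later sterol steps, from squalene to cholesterol, 11 rose in WT atorvastatin against WT vehicle and 12 fell in PXRKO atorvastatin against WT atorvastatin in the authors' deposited tables. Over all genes, 5.47% were called higher in the first comparison and 5.1% lower in the second. With PCN 0 of the 11 tested passed in edgeR, with a median log2 fold change of 0.04. Sc5d, the lathosterol oxidase, averaged 5717 ± 457 counts in WT atorvastatin livers, 3608 ± 475 in WT PCN livers and 3518 ± 196 in WT vehicle livers (SD, n = 4 each). Tm7sf2, a sterol reductase, averaged 1655 ± 268 counts in PXRKO atorvastatin livers, 2156 ± 161 in WT atorvastatin livers, 1254 ± 129 in PXRKO vehicle livers and 1246 ± 194 in WT vehicle livers (adjusted p = 0.539 for atorvastatin in PXRKO livers and 2e-09 in WT livers, in the authors' deposited tables, and the difference of the responses did not pass, with a log2 of −0.39, 95% interval −0.75 to −0.03 and edgeR interaction adjusted p = 0.163). Tm7sf2 has PXRKO vehicle values only because its own result between the PXRKO groups selected it, so that difference is a description. Ebp, the sterol isomerase, was the 1 gene not called higher with atorvastatin, and it was called lower in PXRKO atorvastatin against WT atorvastatin, with means of 1666 ± 91.7 in PXRKO atorvastatin livers and 2003 ± 108 in WT atorvastatin livers.

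The branches that use isoprenoid diphosphates for prenylation, dolichol and ubiquinone were read as a list of 15 genes. With atorvastatin 1 of 15 rose and 1 fell in the authors' deposited table, beside 5.47% of all genes called higher and 4.1% called lower, so these counts are near the shares over all genes. These were Rabggta, a subunit of the Rab prenyl transferase (log2 fold change 0.27, adjusted p = 0.0334), and Zmpste24, the protease that trims prenylated lamin A precursor (log2 fold change −0.20, adjusted p = 0.0343). In PXRKO atorvastatin against WT atorvastatin 0 of 15 were called there, and with PCN 0 of 15 passed in edgeR, with a median log2 fold change of −0.02.

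Of 10 genes of the sterol-sensing machinery 8 are listed, and their calls pointed both ways. With atorvastatin 4 rose and 1 fell in the authors' deposited table, where 5.47% of all genes were called higher and 4.1% lower. With PCN 2 rose and 1 fell in edgeR, where 1.93% of all genes were called higher and 1.66% lower. Insig1, an SREBP target that retains the SREBP complex in the endoplasmic reticulum, averaged 4880.4 ± 1341 counts in WT atorvastatin livers, 2827 ± 876 in WT PCN livers and 2386 ± 147 in WT vehicle livers. It was called with atorvastatin (adjusted p = 1.28e-08 in the authors' deposited table) and not with PCN (edgeR adjusted p = 0.47). In the knockout Insig1 averaged 2013 ± 539 counts in PXRKO atorvastatin livers and 1832 ± 294 in PXRKO vehicle livers (SD, n = 4 each). Its response was smaller there than in WT livers, by a log2 of −0.90 (95% interval −1.45 to −0.35, edgeR interaction adjusted p = 0.0315 over 357 listed genes, of which 11.5% were called). The call was lost in 5 of 16 fits that left out a library, with an adjusted p of up to 0.0711. Insig1 has PXRKO vehicle values only because its result in PXRKO vehicle against WT vehicle selected it. It was called lower there (adjusted p = 0.0496 in the authors' deposited table). The difference of its responses is therefore a description, and genotype and experiment cannot be told apart. Insig2, which also retains the SREBP complex but is not a sterol-induced gene in liver, averaged 1427 ± 255 counts in WT atorvastatin livers, 1778 ± 782 in WT PCN livers and 4368 ± 1198 in WT vehicle livers, and fell with both compounds (adjusted p = 2.94e-16 in the authors' deposited table for atorvastatin and 0.0223 in edgeR for PCN). Stard4, a sterol carrier, rose with both, averaging 2681 ± 595 counts in WT atorvastatin livers, 2179 ± 168 in WT PCN livers and 1500.4 ± 134 in WT vehicle livers. In PXRKO atorvastatin against WT atorvastatin, Insig1 and Stard4 were among 4 genes called lower and Insig2 among 2 called higher in the authors' deposited table. Over all 14690 genes there, 749 were called lower and 625 higher.

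Paralogs and ketone body enzymes were set beside the entry steps, since Aacs and Hmgcs1 share substrates with ketogenesis. Of the 8 listed genes of this group, Acly and Acss2, which supply cytosolic acetyl-CoA, were those that rose with atorvastatin in the authors' deposited table. Over all genes 5.47% were called higher there. With PCN 0 of 8 passed in edgeR. Acat3, the neighbour and paralog of Acat2, averaged 1928 ± 326 counts in WT PCN livers and 2143 ± 213 in WT vehicle livers (SD, n = 4 each) and is not listed for atorvastatin.

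Mvk and its neighbour Mmab, which encodes an enzyme of vitamin B12 metabolism, start 208 bases apart on opposite strands. Mmab had a mean of 325 ± 46.4 counts in WT atorvastatin livers, 211 ± 40.3 in WT PCN livers and 216 ± 11.1 in WT vehicle livers (SD, n = 4 each). It was higher with atorvastatin (log2 fold change 0.59, edgeR adjusted p = 0.00961 on listed genes) and lower in PXRKO atorvastatin than in WT atorvastatin livers (log2 fold change −0.80, edgeR adjusted p = 0.0144), in the same directions as Mvk and by less. Of the other close neighbours, Cyba near Mvd and Rusc1 near Fdps averaged 39.7 and 22.7 counts in WT PCN livers and 47.3 and 25.1 in WT vehicle livers, and are not listed for atorvastatin.

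Across the 16 libraries of WT atorvastatin, WT PCN, PXRKO atorvastatin and WT vehicle, each gene was compared with the mean standardised pattern of the 9 genes on the log2(count + 1) scale. Pearson correlations with that pattern, to which each gene of the arm itself contributes, ran from 0.69 for Aacs to 0.98 for Idi1. Fdps was next lowest at 0.83. Of 1390 genes with values in all these libraries, Sqle (0.97), Cyp51 (0.97), Lss (0.96) and Msmo1 (0.96), all enzymes of later sterol steps, were among the 5 most like it outside the arm. These libraries share groups and scale, the genes are selected ones, and the values are descriptions with no test.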

How the data were processed

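The 24 liver libraries were made with a stranded total RNA kit, per the labels' protocols, and the authors deposited 15 tables. HTSeq counts and DESeq2 tests on GRCm38 are named in the submitters' processing notes, without versions. The sources used here do not name the aligner, the annotation release or the strand setting of the counting. The authors deposited raw read counts per gene, a mean signal (baseMean, a mean over libraries after division by size factors, per the file headers), log2 fold changes, p-values and adjusted p-values. Nearly all genes stand in the vehicle and PCN table alone, while each other table is a selection made on its own statistics.

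Size factors were recovered from the deposited mean signal and the counts, and tables were joined through shared libraries (ratios varied by at most 0.13%, and both routes to PXRKO atorvastatin differed by 0.216%). Columns were mapped to groups, not animals, through the table names and the equal counts of shared libraries (120 columns mapped, 0 unused). Library numbers are column order.

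PCN against vehicle was tested with edgeR 4.0.16 (TMM, filterByExpr, quasi-likelihood F test, Benjamini-Hochberg adjustment, threshold 0.05), leaving out 442 lines without a symbol (4.86% of counts). Other calls are the authors', beside edgeR on the listed genes, which borrowed the dispersion trend and prior (5.83 degrees of freedom) of the vehicle and PCN table and adjusted over the number of genes implied by the deposited adjusted p. Comparisons of 2 compounds and the interaction used that fit, adjusted over the listed genes, which were selected in part on the same libraries. Intervals are 95% confidence intervals of the log2 fold change. They use the variance between mice and do not span the values of single mice. Alternatives were other scaling and filters, DESeq2 1.42.0 and leaving out each library. The fits were tested on simulated data. Promoters come from RefSeq (GRCm38.p6) and exon overlaps from GENCODE.

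The genes and lists were chosen with earlier results of these data known. Named genes are the 9 enzymes, up to 4 of each list by mean count, called members of short lists, genomic neighbours and the genes most like the 9. Some items are not reported here. Other software was Python 3.11.15 with pandas 2.3.3, numpy 2.4.6, matplotlib 3.10.9 and scipy 1.17.1, and R 4.3.3 with limma 3.58.1.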

Additional observations from a re-analysis of the deposited data

Results flagged for a closer look

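In 39 sets of 4 libraries (a gene in a group), 4 had a library far from the other 3, judged by its gap to the nearest library as a share of the range of the group. Chance alone flags about 1 in 20 such sets. Aacs in WT atorvastatin livers had a share of 0.967, with library 2 at 2999.5 counts and the others at 1334 to 1389. Idi1 (0.894) and Fdps (0.856) in WT PCN livers both had library 4 far above the rest. Fdps in PXRKO atorvastatin livers had a share of 0.862, with library 3 at 164 counts. The cause was not tested.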

How the results depend on the processing

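All 9 genes stayed called higher for WT atorvastatin against WT vehicle under edgeR on listed genes, each table's own size factors and DESeq2, with 8 to 9 when a library was left out. For PXRKO atorvastatin against WT atorvastatin 8 were called lower under each of these. WT pravastatin against WT vehicle (2 genes listed), PXRKO atorvastatin against PXRKO vehicle (1 gene listed) and the interaction (1 gene listed) gave 0 under every setting run. For WT atorvastatin against WT pravastatin both listed genes were called under every setting run. For WT PCN the count was 1 under the authors' result, DESeq2, its size factors and no filter, and 1 to 2 without a library (2 without PCN library 1, where Fdft1 passed). For WT atorvastatin against WT PCN it was 8 with DESeq2 and 3 to 8 without a library. It was 5 without the vehicle libraries, an alternative added after the data were seen, where Mvd and Mvk lost the call. Directions reversed only in fits without a library, and the genes concerned were called in no fit. The log2 fold change of WT PCN over WT vehicle then ranged from −0.020 to 0.34 for Pmvk, −0.33 to 0.37 for Mvd and −0.0098 to 0.35 for Idi1. It ranged from −0.31 to 0.18 for Aacs in WT atorvastatin over WT PCN, and from −1.04 to 0.015 for Fdps in the interaction. Over all genes, the authors' tables call 762 higher and 571 lower for WT atorvastatin against WT vehicle (edgeR on listed genes 476 and 316), 411 and 362 for WT PCN (edgeR 248 and 213), and 625 and 749 for PXRKO atorvastatin against WT atorvastatin (444 and 504). Spearman correlation kept 2 of the 5 genes most like the arm. Each table's own size factors were not run for WT atorvastatin against WT PCN or the interaction, which span tables, and a fit without vehicle libraries was not run for WT atorvastatin against WT pravastatin. No paired analysis was possible because no 2 groups share an animal number. Animal-number range was not used as a covariate, since columns name no animal. Depth limits Mvd and Fdps most, with WT vehicle means of 69.6 and 63.9 counts.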
